A study of Mus musculus with 2 samples.

Results

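Barcodes with a high share of mitochondrial RNA were described in droplet single-cell RNA sequencing of mouse colon. A barcode, the tag of 1 droplet, entered when it held at least 1000 UMIs (unique molecular identifiers, a count of captured RNA molecules), at least 200 genes and at least 15% of its UMIs from genes whose symbol begins with mt-. Members were thus chosen by a measured value, their mitochondrial share. In all, 400 of 1539 barcodes with enough UMIs and genes did so, 192 of 628 in the THC library and 208 of 911 in the vehicle library. They were set against the 1026 barcodes under 10%, of which 396 were in the THC library and 630 in the vehicle one, and the 113 barcodes between 10% and 15% were left out of that comparison. The THC library came from colons of C57BL/6 wild-type mice given 10 mg/kg of THC (tetrahydrocannabinol, a psychoactive compound of cannabis), and the vehicle library from mice of the same strain and genotype given vehicle. The sources used here do not give the number, sex or age of the mice. Per the labels' protocols, the colon was treated with EDTA to loosen the epithelium and digested with collagenase D, DNAse and Dispase, and lamina propria cells were enriched on Percoll. With 1 library per treatment there was no replicate, no test was made, and every interval below covers counting error only.

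The mitochondrial genome encodes 13 proteins, all of them subunits of the respiratory chain or of ATP synthase. The nucleus encodes the other subunits, which are made in the cytosol and imported. Single-cell studies often discard barcodes with much mitochondrial RNA as a quality step, and the limit is set by the analyst. The colon epithelium is rich in mitochondria and burns butyrate made by gut bacteria. It is renewed from Lgr5-marked stem cells at the crypt base, and mature absorptive colonocytes at the surface are shed.

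Members made up 30.6% of the THC barcodes (exact binomial 95% interval 27.0 to 34.3%) and 22.8% of the vehicle barcodes (20.1 to 25.7%). Their median mitochondrial share was 45.1% in the THC library and 35% in the vehicle one, with highest values of 94.0% and 95%. Barcodes under 10% had medians of 4.20% in the THC library and 3.86% in the vehicle one. These shares chose the members and are a description. Just inside the threshold, between 15% and 16%, lay 8 THC barcodes (15.3 to 15.9%) and 13 vehicle barcodes (15.1 to 15.7%). Just outside it, between 14% and 15%, lay 4 THC barcodes (14.0 to 14.3%) and 11 vehicle barcodes (14.2% and above). Members held 19.5% of the UMIs in THC barcodes kept and 60.9% of the mitochondrial ones, and 15.4% and 51.4% in the vehicle library.

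The libraries summed to 7080022 UMIs for THC and 7786409 for vehicle. The deposited THC matrix listed 737280 barcodes, of which 106628 had a UMI, and that of vehicle listed 973, none with fewer than 502 UMIs. The same minimums were therefore applied to both. They do not undo the cut of the vehicle matrix before deposit, which the THC matrix had not had. Shares of members in the libraries are thus not fully alike, and what part this has in their difference was not tested. THC barcodes of 11 to 100 UMIs, taken here as free RNA, had 3.76% mitochondrial UMIs over 34583 barcodes, close to the median of barcodes under 10% and far below that of the members. A doublet caller (scrublet) marked 2 THC and 1 vehicle barcode, none of them a member. The libraries shared 2 barcode sequences, each a member in at least 1 library and 1 of them in both. Whether a barcode held an intact cell was not tested.

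The classes were rebuilt here from nuclear genes only, by clustering both libraries together and matching clusters to marker lists, and so are called X-like. Most members were epithelial-like: 107 of 192 members in the THC library (55.7%, 48.4 to 62.9%) and 151 of 208 in the vehicle library (72.6%, 66.0 to 78.5%). Within the epithelial-like class, 64.8% of 165 THC barcodes (57.0 to 72.1%) and 62.4% of 242 vehicle barcodes (56.0 to 68.5%) were members. A further 52 THC and 42 vehicle members lay in 3 clusters that could not be named. Goblet-like barcodes, the mucus-secreting class marked by Muc2 and Spdef, gave 11 members of 61 in the THC library (18%, 9.36 to 30%) and 7 of 89 in the vehicle library (7.87%, 3.22 to 15.5%). Smooth muscle-like barcodes, marked by the contractile genes Acta2 and Myh11, gave 14 of 61 in the THC library (23.0%, 13.2 to 35.5%) and 5 of 77 in the vehicle library (6.49%, 2.14 to 14.5%).

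Stromal and immune classes held few members or none. Fibroblast-like barcodes gave 4 of 98 in the THC library and 0 of 156 in the vehicle one, which allows a vehicle share of up to 1.92% taking 3 counts as the limit of a count of 0 (2.34% by the exact binomial interval). None of the 251 B-like, T-like, dendritic-like and endothelial-like barcodes of both libraries was a member, which allows a share of up to 1.2% by the same limit (1.46% by the exact interval), and the highest mitochondrial share among them was 9.33%. Enteroendocrine-like barcodes gave 1 member of 6 in the THC library and 2 of 6 in the vehicle one, macrophage-like 1 of 15 and 1 of 37, and plasma-like 2 of 8 and 0 of 11. The plot of mitochondrial share by class shows the epithelial-like barcodes spread over the whole range, while the B-like, T-like, dendritic-like and endothelial-like barcodes stay below the lower limit.

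**Figure D1:**
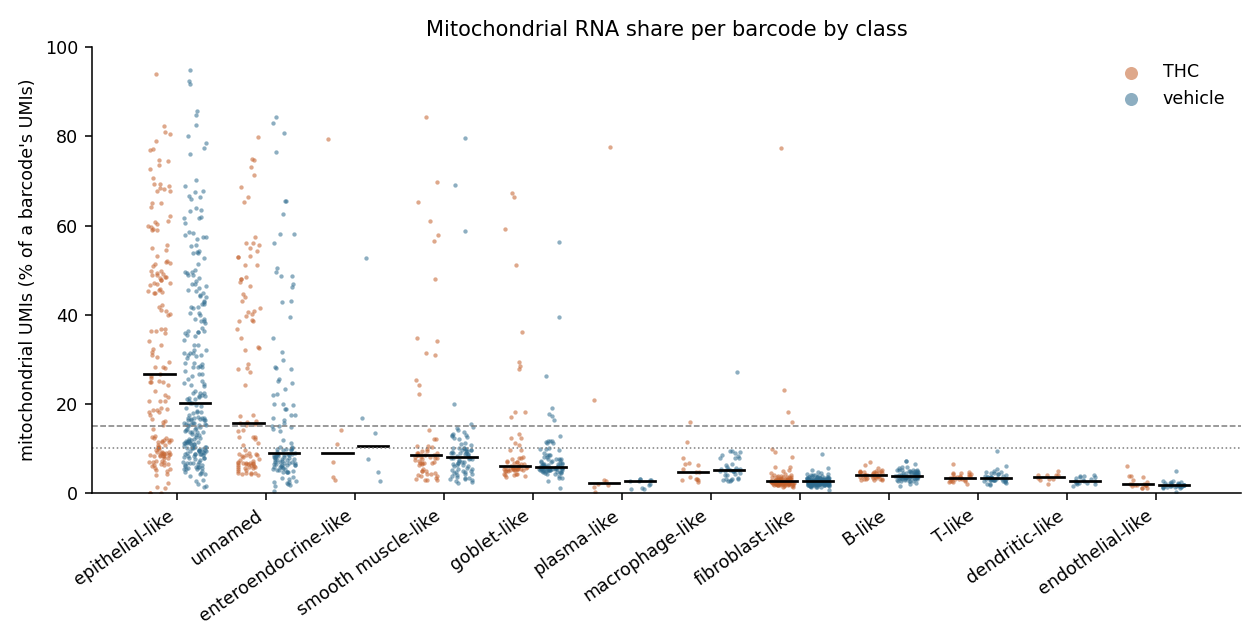
Mitochondrial UMIs as a percent of each barcode's UMIs (vertical axis) by class, THC left of vehicle; points are barcodes, black lines medians, and the dashed and dotted lines mark 15% and 10%. The epithelial-like medians are 26.7% in the THC library and 20.1% in the vehicle one, and no B-like, T-like, dendritic-like or endothelial-like barcode is above 9.33%.

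The 3 unnamed clusters with members carried epithelial or cell cycle genes. Cluster 13 was led by Ube2c and Top2a, with Mki67 also among its leading genes, all of them genes of dividing cells, and held 18 THC and 19 vehicle members. Cluster 16 was led by Fxyd4, Cyp2d12 and Ly6g and held 30 THC and 16 vehicle members. It matched 9 epithelial markers, among them Epcam, Krt20, Car1, Slc26a3 and Aqp8, but Ly6g, a gene of the neutrophil list, among its 10 leading genes kept it unnamed. Cluster 9 had Lgr5 and Ascl2, stem cell genes of the crypt, among its leading genes and held 4 THC and 7 vehicle members. When members were instead given the class of most of their nearest neighbours under 10%, 350 of 400 (87.5%) were epithelial-like, including 93 of the 94 from unnamed clusters and 254 of the 258 already epithelial-like.

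In 3 clusters nearly every barcode was a member. Cluster 0, with Mal, S100g, Slc10a2 and Tmigd1 among its leading genes, had 39 members of 42 THC barcodes (92.9%) and 39 of 46 vehicle barcodes (84.8%). Cluster 16 had 30 of 35 (85.7%) in the THC library and 16 of 17 (94.1%) in the vehicle one. Cluster 18, with Clca4a, Duox2, Guca2a and Slc9a3 among its leading genes, had 23 of 24 (95.8%) in the THC library and 19 of 20 (95%) in the vehicle one. Together these clusters held 184 barcodes, of which 178 were at 10% or above and only 6 below it, and they held 41.5% of all members. Markers of mature colonocytes were among those that matched each of them: Krt20, a keratin of differentiated epithelium, Car1, a carbonic anhydrase, Slc26a3, a chloride and bicarbonate exchanger, and Aqp8, a water channel. Ribosomal protein transcripts were few in these clusters on either side of the threshold, with a median of 3.40% of nuclear UMIs in THC members, against 4.45% in 3 barcodes under 10%, and 4.19% in vehicle members, against 2.64% in 3.

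The other epithelial-like members lay in clusters that also held barcodes under 10%. Cluster 7 was led by Gm26917 and had 35 members of 44 THC barcodes and 73 of 109 vehicle barcodes. It was shallow and matched 3 epithelial markers, the keratins Krt8, Krt18 and Krt19, the fewest with which a cluster could be named. Cluster 8, led by Krt36, had 7 of 28 in the THC library and 14 of 38 in the vehicle one, and cluster 6, led by the antimicrobial lectin genes Reg3b and Reg3g, had 3 of 27 and 6 of 29.

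Within the epithelial-like class, members had many fewer nuclear UMIs than barcodes under 10% and somewhat more mitochondrial UMIs. Epithelial-like THC members had a median of 3006 nuclear UMIs, against 16924 in THC barcodes under 10%, which is 5.63-fold fewer. Their median of mitochondrial UMIs was 2747, against 1474 under 10%, 1.86-fold more. Epithelial-like vehicle members had 2021 nuclear UMIs, against 11650 under 10%, 5.76-fold fewer, and 1654 mitochondrial UMIs, against 843, 1.96-fold more. Both counts make up the share that chose the members, so these values describe them. Members lay mostly in clusters 0, 7 and 18, and barcodes under 10% mostly in clusters 6, 7 and 8.

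Smooth muscle-like barcodes and cluster 13 also differed more in nuclear than in mitochondrial UMIs. In smooth muscle-like cluster 3 the medians were 1713.5 nuclear UMIs in 14 THC members, against 15413 in 26 barcodes under 10%, and 886.5 in 4 vehicle members, against 12712 in 34. Mitochondrial UMIs there were 1853 against 1270 in the THC library and 1546.5 against 1141 in the vehicle library. In cluster 13 the THC medians were 3590.5 nuclear UMIs in members and 25305.5 under 10%, with 1901 and 1520.5 mitochondrial UMIs. Vehicle medians in cluster 13 were 1700 nuclear UMIs in members and 12942 under 10%, with 1118 and 353 mitochondrial UMIs. Goblet-like THC members had 2027 nuclear UMIs, against 12797 under 10%, while the 7 goblet-like vehicle members had 7708, against 11621.5. Cluster 7 differed, with shallow barcodes on both sides: 35 THC members had 1623 nuclear UMIs, against 4024 in 8 barcodes under 10%, and 73 vehicle members 1478, against 2164 in 25. Mitochondrial UMIs in cluster 7 were 1565 in THC members, against 35 under 10%, and 967 in vehicle members, against 137. In all of these sets, in both libraries, the nuclear median was lower and the mitochondrial median higher in members. Over all classes together, THC members had 3.28-fold fewer nuclear and 7.98-fold more mitochondrial UMIs, and vehicle members 3.42-fold fewer and 7.65-fold more, with a class make-up that differed from that of barcodes under 10%.

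**Figure D2:**
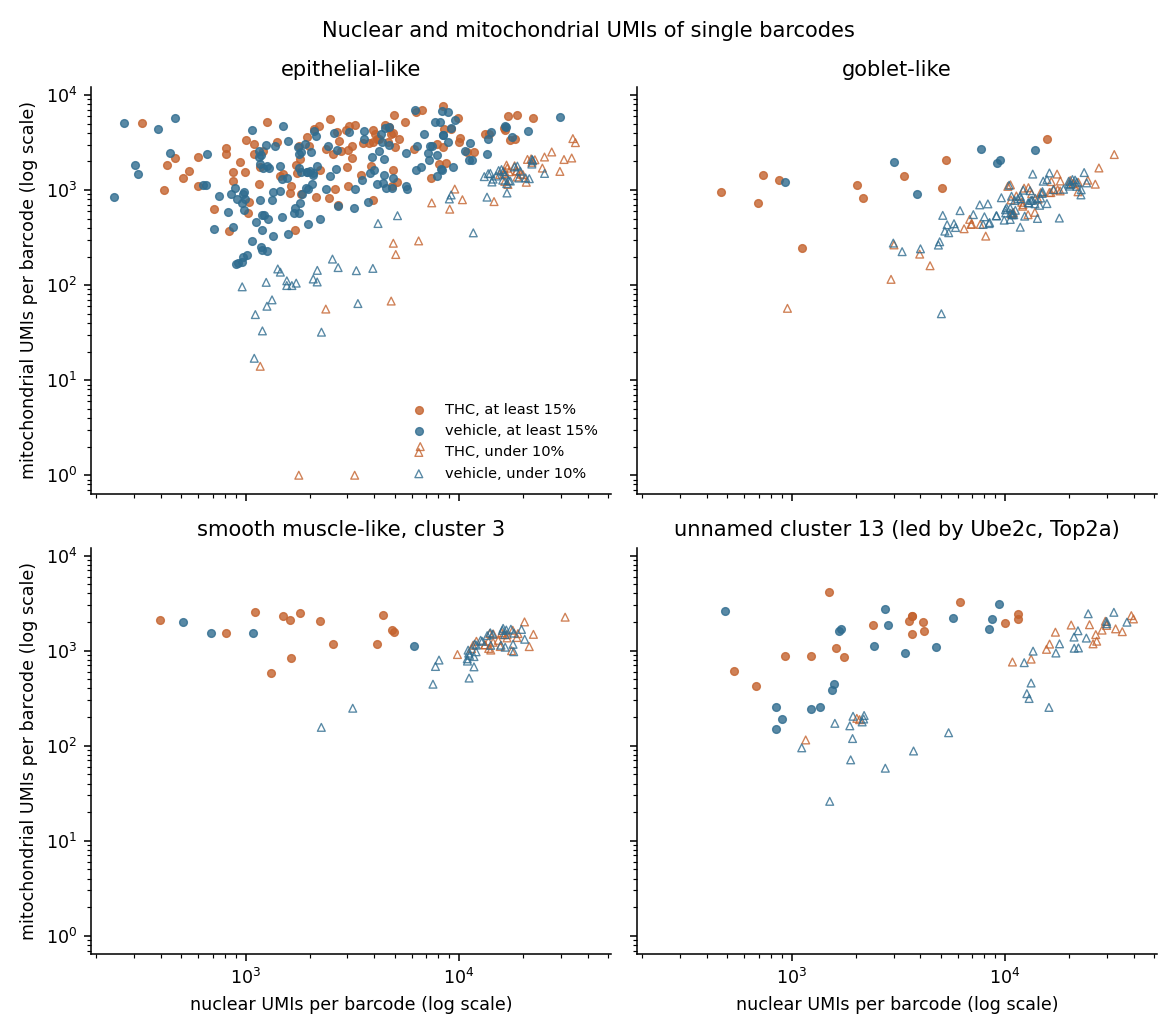
Nuclear UMIs (horizontal) against mitochondrial UMIs (vertical) of single barcodes on log axes, in 4 sets that share no barcode; filled circles are members, open triangles barcodes under 10%, and barcodes with no mitochondrial UMI are drawn at 1. Most members lie to the left of the deeper barcodes under 10% and at or above their mitochondrial counts: in the epithelial-like panel the THC medians are 3006 and 2747 in members, against 16924 and 1474.

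Members also held fewer genes, a median of 1241 in the THC library and 1062.5 in the vehicle one, against 2691.5 and 2385.5 under 10%. Within the epithelial-like class the medians were 1458 in THC members, against 4173, and 1058 in vehicle members, against 3112. At equal depth the gap in that class was small. With each epithelial-like barcode thinned to 1000 nuclear UMIs, members had a median of 623 genes in the THC library, against 627 under 10%, and 620 in the vehicle library, against 600. The 16 THC and 26 vehicle members below 1000 nuclear UMIs were left out of these values, as was 1 vehicle barcode under 10%.

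The make-up of nuclear RNA differed along the mitochondrial share. Ribosomal protein transcripts, which encode the proteins of the cytosolic ribosome, had a median share of 4.80% of nuclear UMIs in epithelial-like THC members, against 22.5% under 10%, and 7.88% in vehicle members, against 21.7%. Malat1, a long non-coding RNA that stays in the nucleus, had medians of 2.32% in THC members, against 0.225% under 10%, and 1.84% in vehicle members, against 0.430%. By band of mitochondrial share, the Malat1 median in THC barcodes was 0% under 5%, 0.225% at 5 to 10%, 0.498% at 15 to 20%, 2.90% at 30 to 50% and 3.16% at 50 to 80%. In vehicle barcodes it was 1.0%, 0.323%, 0.936%, 2.04% and 3.21% over the same bands, so that the lowest band was out of order. The 4 THC and 7 vehicle barcodes at 80% or more, with medians of 447.5 and 391 nuclear UMIs, were lower again, at 0.224% and 0.857%. Barcodes under 5% were also few, 9 in the THC library and 10 in the vehicle one, with medians of 4806 and 2215 nuclear UMIs.

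**Figure D3:**
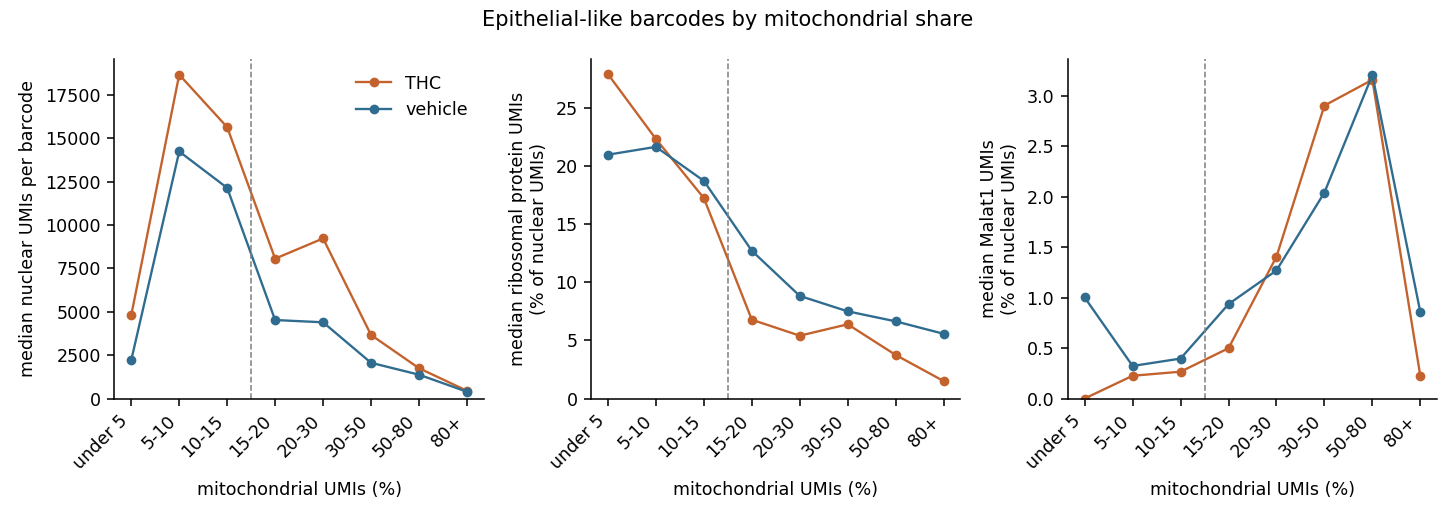
Median nuclear UMIs, ribosomal protein share and Malat1 share of nuclear UMIs (vertical axes) of epithelial-like barcodes by band of mitochondrial share (horizontal), with the member threshold dashed. At 50 to 80% the ribosomal protein share is 3.75% in the THC and 6.65% in the vehicle barcodes, and Malat1 is 3.16% and 3.21%.

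Within the mitochondrial UMIs the rule used only the sum, so their make-up was free to differ. Among epithelial-like barcodes, mt-Nd4, a subunit of complex I, was 1.82% of mitochondrial UMIs in 107 THC members, against 3.78% in 41 barcodes under 10%, a log2 ratio of -1.06 (exact conditional Poisson 95% interval -1.13 to -0.99). In 151 vehicle members mt-Nd4 was 2.40%, against 3.72% in 53 barcodes under 10%, a log2 ratio of -0.63 (-0.71 to -0.55). Another complex I subunit, mt-Nd4l, went the other way, with 5.14% in THC members against 3.71% (log2 ratio 0.47, 0.40 to 0.54) and 5.14% in vehicle members against 3.62% (0.51, 0.43 to 0.58). The ATP synthase subunit mt-Atp8 was 4.93% in THC members against 3.32% (0.57) and 3.96% in vehicle members against 2.95% (0.42). Its neighbour mt-Atp6 differed little, 16.5% in THC members against 16.2% and 17.7% in vehicle members against 17.3%, with intervals that reach 0.

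The most abundant gene, mt-Co1, a core subunit of cytochrome c oxidase, was 28.7% in THC members against 23.1% under 10% (log2 ratio 0.32) and 27.5% in vehicle members against 24.7% (0.16). The complex I genes mt-Nd3 (-0.92 in the THC library and -0.78 in the vehicle one), mt-Nd2 (-0.60 and -0.55), mt-Nd1 (-0.43 and -0.22) and mt-Nd5 (-0.43 and -0.29) were lower in members. So was mt-Cytb of complex III, at -0.41 and -0.26. The log2 ratios of mt-Co2 (-0.18 and -0.06) and mt-Co3 (0.03 and -0.03), both of cytochrome c oxidase, were small. For mt-Nd6, the only gene of the set on the other strand, 290 UMIs in members of each library gave -0.11 and -0.37 with intervals that include 0.

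Part of this pooled pattern was not found within single clusters. Within epithelial-like clusters 6 (vehicle), 7 and 8, which give 5 comparisons, mt-Co1 was lower in members in all 5, with log2 ratios of -0.38 to -0.07. In cluster 13 it was -0.41 in the THC library and -0.33 in the vehicle one. Of the 5 comparisons, that of vehicle cluster 7 had an interval that includes 0 (-0.135 to 0.005). The ratio of mt-Cytb was above 0 in 4 of these 5, at 0.08 and 0.15 in cluster 8, 0.27 in THC cluster 7 and 0.28 in vehicle cluster 6, and -0.17 in vehicle cluster 7. For mt-Nd1 it was 0.41 in THC cluster 7 and between -0.04 and 0.05 in the other 4. For mt-Nd5 it was 0.25 and 0.08 in cluster 8, 0.09 in THC cluster 7, -0.28 in vehicle cluster 7 and -0.04 in vehicle cluster 6. Within the same clusters mt-Nd4 (-0.73 to -0.32) and mt-Nd3 (-0.46 to -0.21) were lower and mt-Nd4l (0.41 to 1.12) and mt-Atp8 (0.28 to 0.58) higher in all 5. As a mean over barcodes, the pooled vehicle ratios were 0.14 for mt-Atp8, 0.29 for mt-Nd4l, -0.09 for mt-Nd5, -0.16 for mt-Cytb, -0.12 for mt-Nd1 and -0.10 for mt-Atp6. In the THC library they were -0.20 for mt-Nd1, -0.20 for mt-Cytb, -0.21 for mt-Nd5 and -0.58 for mt-Nd3.

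The genes that parted, mt-Nd4l from mt-Nd4 and mt-Atp8 from mt-Atp6, are neighbours whose reading frames overlap and that are carried on shared messenger RNAs. They are printed here to show the overlap, from the GENCODE M21 transcripts on GRCm38, plus strand, 5′ to 3′, with the shared bases in capitals. The whole of mt-Atp8 (chrM:7766-7969) is followed by the first 90 bases of mt-Atp6 (chrM:7927-8016), then the last 90 bases of mt-Nd4l (chrM:10084-10173) and the first 90 of mt-Nd4 (chrM:10167-10256).
mt-Atp8: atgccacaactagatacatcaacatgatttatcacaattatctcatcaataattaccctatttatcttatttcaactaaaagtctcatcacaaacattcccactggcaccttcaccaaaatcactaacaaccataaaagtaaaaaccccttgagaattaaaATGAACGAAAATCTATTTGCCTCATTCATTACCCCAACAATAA
mt-Atp6: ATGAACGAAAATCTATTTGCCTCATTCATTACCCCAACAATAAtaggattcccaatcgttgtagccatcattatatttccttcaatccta
mt-Nd4l: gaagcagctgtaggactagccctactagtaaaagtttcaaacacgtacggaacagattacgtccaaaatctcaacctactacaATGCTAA
mt-Nd4: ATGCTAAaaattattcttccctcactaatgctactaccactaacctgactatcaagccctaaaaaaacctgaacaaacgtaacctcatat
The overlap is 43 bases for mt-Atp8 and mt-Atp6 and 7 bases for mt-Nd4l and mt-Nd4, and reads in them cannot be assigned to 1 gene, so these counts are uncertain there. How the authors' counting treated such reads is not stated.

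As a ratio of UMIs, epithelial-like THC members held 2.83 mt-Nd4l per mt-Nd4, against 0.981 under 10%, and vehicle members 2.14, against 0.973. The mt-Atp8 to mt-Atp6 ratio was 0.299 in THC members, against 0.205, and 0.223 in vehicle members, against 0.171. Cluster 13 had 3.33 mt-Nd4l per mt-Nd4 in THC members, against 1.19, and 3.09 in vehicle members, against 1.17. Within cluster 8 the ratio was 2.18 in THC members, against 0.719, and 1.71 in vehicle members, against 0.755. Within cluster 7 it was 4.01 against 1.22 in the THC library and 2.54 against 1.53 in the vehicle library. The THC value under 10% in cluster 7 rests on 78 UMIs of mt-Nd4l and 64 of mt-Nd4 in 8 barcodes. Goblet-like barcodes gave 0.954 against 0.556 in the THC library and 1.33 against 0.633 in the vehicle library. Smooth muscle-like cluster 3 differed from them: its THC members had 2.13, against 1.98, and its 4 vehicle members 1.27, against 1.56. Over the 8 comparisons of the 4 sets, mt-Nd4 was lower in members in 7, mt-Nd4l higher in 6, mt-Atp8 higher in 7 and mt-Atp6 higher in 8, the last by at most 0.16 on the log2 scale. The comparisons with mt-Nd4l lower in members were both of cluster 3.

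**Figure D4:**
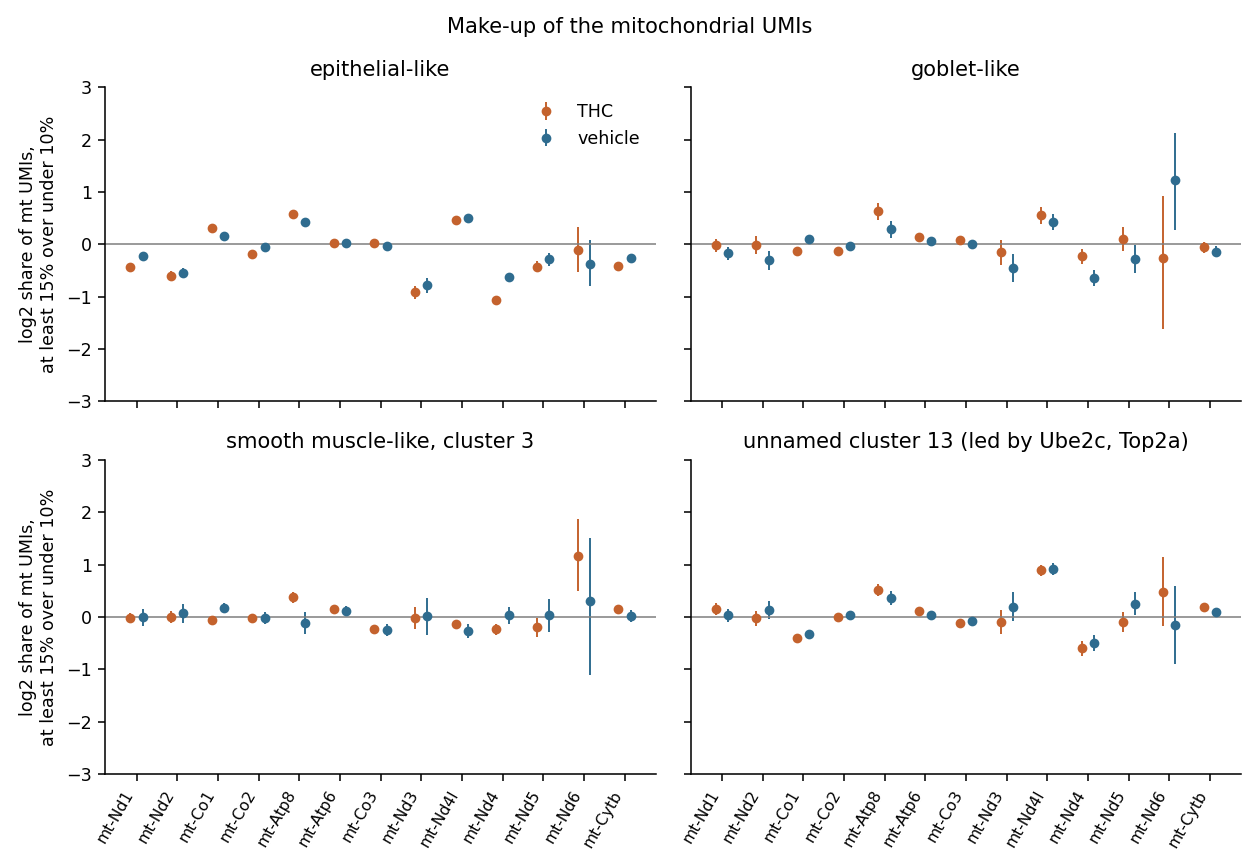
Log2 ratio of each gene's share of mitochondrial UMIs, members over barcodes under 10% (vertical), for the 13 genes in genome order (horizontal), THC left of vehicle; bars are 95% counting intervals. In the epithelial-like panel mt-Nd4 lies at -1.06 and -0.63 and mt-Nd4l at 0.47 and 0.51, whereas in smooth muscle-like cluster 3 mt-Nd4l lies at -0.13 and -0.27.

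Nuclear genes were compared as shares of nuclear UMIs, so that the mitochondrial sum stayed out of the scale. In the epithelial-like class 5783 genes had enough UMIs, and their median log2 ratio of members over barcodes under 10% was 0.07 in the THC library and 0.09 in the vehicle one. Of these, 500 (8.65%) were at least 2-fold higher in members of both libraries and 375 (6.48%) at least 2-fold lower. The libraries differ in treatment and are not replicates, so this is a rule of size and not a test. Members and barcodes under 10% lie in different clusters. A matched comparison therefore kept only clusters 6, 7 and 8, with 45 THC and 93 vehicle members, and weighted the barcodes under 10% to the members' mix of these clusters. It gave 188 genes higher and 57 lower of 4514, and it leaves out the 62 THC and 58 vehicle members of clusters 0 and 18, so that both the members and the weights differ. In the THC library 35 of the 45 members kept lay in cluster 7. That cluster had only 8 THC barcodes under 10%, with medians of 4024 nuclear UMIs and 0% Malat1, so the matched THC values rest largely on few shallow barcodes. Within cluster 8 alone, with 7 THC and 14 vehicle members, 46 of 1605 genes (2.87%) were higher and 32 (1.99%) lower by the same rule.

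The 5 highest genes included an ion exchanger and 2 cytochromes P450. Slc9a3, the sodium and proton exchanger of the absorptive brush border, had 88 UMIs in THC members, against 1 under 10%, a log2 ratio of 6.92 (4.41 to 12.2). In the vehicle library Slc9a3 had 56 UMIs in members, against 0, at least 4.04 higher on the log2 scale against a floor of 3 UMIs over the group. Cyp4b1, a cytochrome P450, had 48 UMIs in THC members, against 4 (log2 ratio 4.05, 2.60 to 5.98), and 60 in vehicle members, against 1 (5.73, 3.20 to 11.1). Another cytochrome P450, Cyp2d34, had 4.26 UMIs per 10000 nuclear UMIs in THC members, against 0.397 (log2 ratio 3.42), and 1.59 in vehicle members, against 0.0935 (4.09). The unnamed genes 2010109I03Rik (3.69 in the THC library and 3.73 in the vehicle one) and 4930539E08Rik (3.49 and 3.95) were the others. Slc9a3 and 2010109I03Rik are among the leading genes of cluster 18, which holds almost only members, so their ratios partly describe that cluster. Cyp2d34 is among those of cluster 16, which is unnamed and does not enter the epithelial-like class. In the matched comparison, which leaves out clusters 0 and 18, 2010109I03Rik was -2.31 in the THC library. Cyp2d34 was there 2.73 in the THC library and 0.43 in the vehicle one, 4930539E08Rik 2.77 and 2.67, and Cyp4b1 5.82 in the THC library. Against the few shallow barcodes under 5%, which held 0 UMIs of Slc9a3 and of Cyp4b1 in the THC library, the ratios were at least 1.45 for Slc9a3 and at least 0.58 for Cyp4b1.

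The 5 lowest genes serve translation and protein folding, with 1 exception. Ppia, the proline isomerase cyclophilin A, had 6.47 UMIs per 10000 nuclear UMIs in THC members, against 29.2 under 10% (log2 ratio -2.17, -2.35 to -2.0), and 6.89 in vehicle members, against 24.7 (-1.84, -2.01 to -1.68). Hspe1, the co-chaperonin of the mitochondrial matrix, had 1.72 in THC members, against 6.77 (-1.98), and 2.10 in vehicle members, against 9.56 (-2.19). The ribosomal protein genes Rps2 (-1.76 and -1.81) and Rps15a (-1.78 and -2.0) were also lower. Mgst1, a membrane-bound glutathione transferase, was the exception, at -2.20 in the THC library and -2.64 in the vehicle one. All 5 were also lower in the matched comparison, with Ppia at -1.34 and -1.03 and Hspe1 at -0.98 and -0.91.

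Of all 5783 genes, 42.5% were higher and 35.6% lower by any amount in both libraries, which is the background of the counts by direction that follow. Among the gene lists, ribosomal protein genes stood lowest over all epithelial-like barcodes. All 81 measured were lower in members of both libraries, 63 of them at least 2-fold, with median log2 ratios of -1.34 in the THC library and -1.29 in the vehicle one. In the matched comparison the medians were -0.54 and -0.66, 76 of 81 were lower in both and none 2-fold, and complexes II to V were lower in the THC library, at -0.59. Genes of mitochondrial import and biogenesis had medians of -1.13 and -0.90 over 14 genes, 11 of them lower in both. They included Hspd1, the mitochondrial chaperonin (-1.89 and -1.90), Timm23, the channel of the inner membrane (-2.10 and -2.18), and Tomm20, a receptor of the outer membrane (-1.56 and -0.97), while Ppargc1a, a coactivator of mitochondrial genes, was at 0.07 and 0.98.

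Most nuclear genes of the respiratory chain were lower in epithelial-like members, whose mitochondrial UMIs per barcode were higher. Complex I had medians of -0.55 in the THC library and -0.49 in the vehicle one over 36 genes, with 28 lower in both, and complexes II to V had -0.46 and -0.39 over 37 genes, with 31 lower in both. This did not hold everywhere: in cluster 8 complex I was at -1.01 in the THC library but 0.17 in the vehicle one, with 24 of 33 genes higher, and complexes II to V were at -0.99 and 0.16, with 23 of 37 higher. Goblet-like barcodes had complex I at -0.82 in the THC library and 0.09 in the vehicle one, and complexes II to V at -0.49 and 0.01. Ndufa4 (-1.46 and -1.40) and Ndufc2 (-1.10 and -1.21) were among the lower genes, and Ndufa13 (0.34 and 0.26) and Ndufv3 (0.34 and 0.21) among the few higher. Genes of mitochondrial genome upkeep and RNA processing had medians of -0.51 and -0.21 over 8 of 19 listed genes that were measured. Slirp, which binds mitochondrial messenger RNA, was at -1.02 and -1.08, and Tfam, which packs mitochondrial DNA, at 0.28 and 0.14.

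Nuclear-retained RNAs stood highest, with medians of 2.10 in the THC library and 1.38 in the vehicle one over 5 measured genes, 3 of them at least 2-fold higher in both libraries. Malat1 had 211 UMIs per 10000 nuclear UMIs in THC members, against 27.0 under 10% (log2 ratio 2.97), and 156 in vehicle members, against 40.8 (1.93). Neat1, the scaffold RNA of nuclear paraspeckles, had 13.5 in THC members, against 3.16 (2.10), and 14.0 in vehicle members, against 3.33 (2.07). Gm26917, annotated as non-coding, did not have 1 direction, at 2.42 in the THC library and -0.19 in the vehicle one. Genes of the nuclear matrix and of splicing had medians of 0.61 and 0.47 over 18 genes, 15 higher in both, among them Pnisr (1.46 and 1.46), Clk1, a kinase of splicing factors (1.38 and 0.71), Son (0.74 and 0.87) and Srrm2 (0.77 and 0.76). In the matched comparison these medians were 0.82 and 0.64.

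Stress and death genes had no common direction. Apoptosis and p53 target genes had medians of 0.49 in the THC library and 0.28 in the vehicle one over 12 genes, but -0.02 in the THC library in the matched comparison. Cdkn1a, an inhibitor of cell division (1.46 and 2.34), and Trp53inp1 (1.05 and 1.79) were higher, while Bax, which opens the outer mitochondrial membrane, was at -1.5 and -0.83. Integrated stress response genes had medians of 0.32 and 0.17 over 7 genes, and -0.02 in the THC library as a mean over barcodes, with Ddit3, the factor CHOP, at 1.49 and 1.47 and Ddit4 at -1.07 and -1.16. Mitophagy and dynamics genes had 0.05 and 0.32 over 10 genes, and -0.02 in the THC library with TMM scaling, with the receptor Optn at 1.25 and 2.07 and Pink1 at 0.50 and 0.05. Heat shock chaperones had -0.43 and -0.56 over 10 genes, but 0.32 in the THC library in the matched comparison. Oxidative stress genes had -0.43 and -0.28 over 14 genes, with Mt2, a metallothionein, at -2.27 and -1.59 and Sod1, the cytosolic superoxide dismutase, at 1.24 and 0.87.

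Glycolysis and hypoxia genes had medians of 0.58 in both libraries over 15 genes, with 13 higher in both, among them the glucose transporter Slc2a1 (1.42 and 1.72) and Vegfa (1.88 and 1.63). In the matched comparison the THC median was -0.24. AP-1 and immediate early genes, which dissociation of tissue is known to induce, were near 0 at -0.05 in the THC library and 0.02 in the vehicle one over 19 genes, and changed sign in the THC library as a mean over barcodes (0.36) and in the matched comparison (0.37), and in the vehicle library with TMM scaling (-0.02) and at 2500 UMIs (-0.03). Jun was at 1.14 and 0.44, and Fos at 0.14 and 0.12. Endoplasmic reticulum and secretory pathway genes had -0.57 and -0.58 over 20 genes, and 0.044 in the THC library in the matched comparison. Abundant cytosolic messenger RNAs had -0.20 and -0.15 over 16 genes, with Eef1a1, the translation elongation factor, at -1.53 and -1.62 and Fth1, the ferritin heavy chain, at 1.10 and 0.96.

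**Figure D5:**
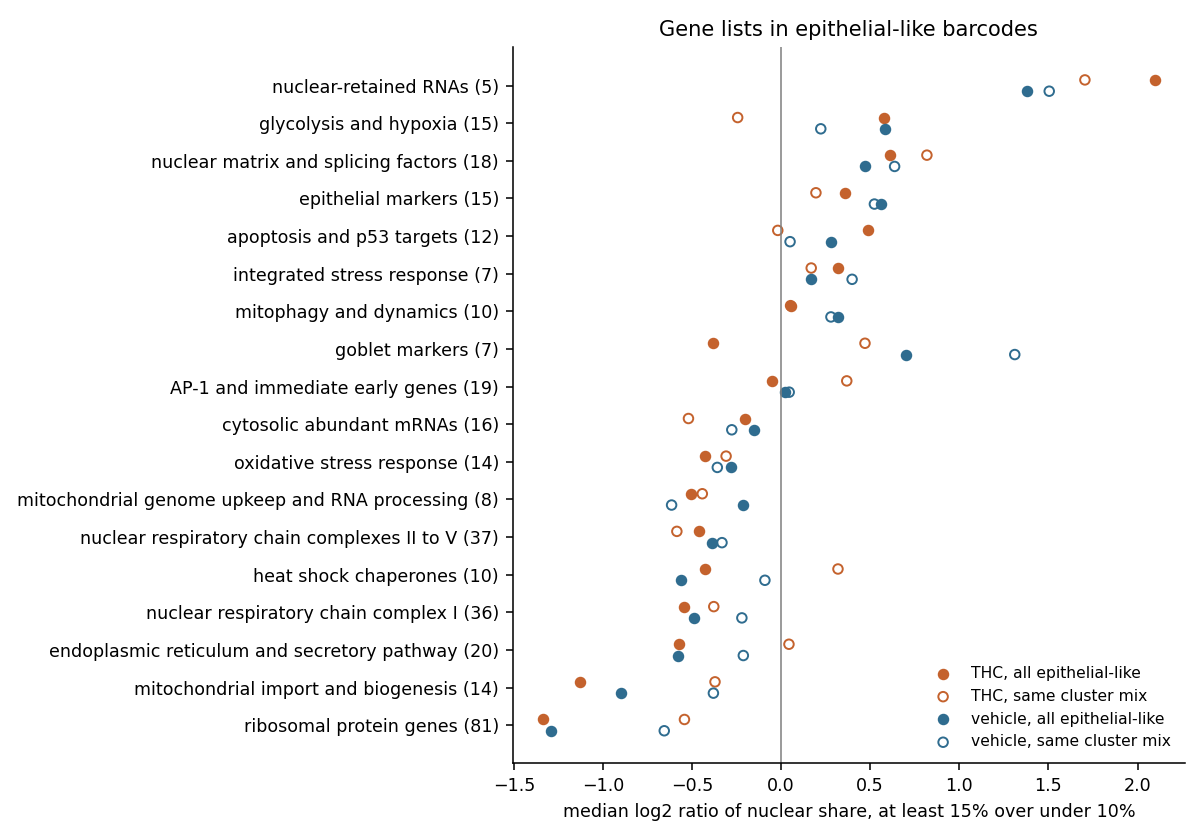
Median log2 ratio of nuclear share, members over barcodes under 10% (horizontal), for 18 gene lists in epithelial-like barcodes, with the number of genes measured in brackets; filled points use all barcodes, open points the matched comparison within clusters 6, 7 and 8. Ribosomal protein genes (-1.34 and -1.29) and nuclear-retained RNAs (2.10 and 1.38) keep their sides there, whereas glycolysis and hypoxia (-0.24), endoplasmic reticulum (0.044), heat shock (0.32) and apoptosis genes (-0.02) change side in the THC library.

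The 15 epithelial markers had medians of 0.36 in the THC library and 0.56 in the vehicle one, with 12 higher in both libraries. Krt20 (2.44 and 1.96), Guca2a, the peptide guanylin (2.37 and 3.14), and Aqp8 (3.69 and 1.68) were higher, and Krt36 (-3.0 and -0.73) and Aqp4 (-1.76 and -0.87) lower. These markers named the clusters and are a description. Goblet markers had medians of -0.38 and 0.70 over 7 measured genes, and 0.47 in the THC library in the matched comparison.

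Markers of other cells were low in epithelial-like barcodes of either kind. Smooth muscle markers, 7 of 9 found in THC and 8 of 9 in vehicle members, summed to 1.16 UMIs per 10000 nuclear UMIs in THC members, against 0.735 under 10%, and to 1.54 in vehicle members, against 0.561. Free RNA of the THC library, taken for these markers over barcodes of 1 to 100 UMIs, held 132. Fibroblast markers summed to 0.770 in THC members, against 0.661, and to 1.11 in vehicle members, against 0.767, with 4 of 13 and 6 of 13 of them found in members. Free RNA held 8.94 of these. Plasma cell markers summed to 4.05 in members of each library, against 3.58 and 2.60 under 10%, and free RNA held 4.07. B, T, macrophage and endothelial markers each summed to less than the fibroblast markers. What part such RNA has in the results was not tested.

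To look beyond epithelium, 4 sets that share no barcode were set side by side, the epithelial-like and goblet-like classes, smooth muscle-like cluster 3 and cluster 13, which gives 8 comparisons over the libraries. At least 2-fold in both libraries, the goblet-like class had 105 genes higher (2.39%) and 62 lower (1.41%) of 4387. Smooth muscle-like cluster 3 had 196 higher (7.44%) and 166 lower (6.3%) of 2634, and cluster 13 had 164 higher (5.09%) and 209 lower (6.48%) of 3224. Of 1673 genes measured in all 4 sets, only Malat1 and Neat1 (0.12%) were at least 2-fold higher in members in all 8 comparisons, and 0 were at least 2-fold lower in all 8. Malat1 ranged over log2 ratios of 1.44 to 3.95, with a median of 2.33, and Neat1 over 1.10 to 4.73, with a median of 1.92.

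By direction alone, 52 of the 1673 genes (3.11%) were higher in members in all 8 comparisons and 119 (7.11%) lower. Genes too sparse to have a direction in a comparison entered neither count. None of the 52 but 39 of the 119 encode ribosomal proteins, as do 81 of all 1673. The median over all these genes ran from -0.59 to 0.26 between comparisons. With it subtracted, 74 genes were higher in all 8, 45 of them among the 52, and 66 were lower in all 8, 59 of them among the 119 and 25 of them ribosomal. Ahnak and Ccnl2 then joined Malat1 and Neat1 as at least 2-fold higher in all 8.

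The genes named next were chosen after their values were seen. Among those higher in all 8, Dst and Plec, which link the cytoskeleton to junctions, had median log2 ratios of 1.66 and 1.35, Ahnak, a giant scaffold protein, 1.27, Akap13 1.5 and the kinase Rock2 1.34, and the splicing genes Son and Srrm2 0.93 and 0.90. Among those lower in all 8 were Cd81, a tetraspanin of the cell surface (median -1.71), Ndufa4, of the respiratory chain (-1.43), Sec61b, of the endoplasmic reticulum channel (-1.31), Eef1b2 and Eef1a1, of translation elongation (-1.5 and -1.27), and Srp14, of the signal recognition particle (-1.17). Each of these 13 genes kept its direction in all 8 comparisons with the median subtracted.

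Transcript length, which the rule did not use, differed between the lists. The longest GENCODE M21 transcript had a median of 6207 bases for 51 of the 52 genes higher in all 8 comparisons, against 2502.5 bases for the genes measured in all 4 sets. It had a median of 1248 bases for the 119 genes lower in all 8, and 1375.5 bases for the 80 that are not ribosomal. Smooth muscle-like cluster 3 had only 4 vehicle members, with 8421 nuclear UMIs in sum. A sparse gene with no UMI in them took the floor of 3 UMIs and could not count as lower. Of 18 endoplasmic reticulum and secretory pathway genes measured in that cluster, 5 were higher there, 5 lower and the rest without direction. What part this limit has in the shorter length of the genes lower in all 8 was not tested. In the epithelial-like class the median was 3894.5 bases for the 500 genes at least 2-fold higher, 1863 for the 375 at least 2-fold lower and 3223.5 for all genes measured. Without ribosomal protein genes the lower genes had 1997.5 bases. Dst had 23279 bases and Sec61b 723 bases.

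The treatment was compared among the epithelial-like members, 107 THC barcodes with 804545 UMIs against 151 vehicle barcodes with 922293. Their summed mitochondrial share was 38.7% in THC members and 34.4% in vehicle members. The clusters differed in their shares, with 39 THC and 39 vehicle barcodes in cluster 0, 35 and 73 in cluster 7, and 23 and 19 in cluster 18. Of 3406 genes, 13 (0.382%) were at least 2-fold higher and 48 (1.41%) at least 2-fold lower in THC members by their share of all UMIs. By their share of nuclear UMIs the counts were 21 and 31.

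Single genes of this comparison rested on few UMIs or few barcodes. Mptx1, a mucosal pentraxin, had 75 UMIs in THC members, against 13 in vehicle members (log2 ratio 2.73, 1.87 to 3.7). Duox2, an oxidase that makes hydrogen peroxide at the mucosal surface, had 126, against 49 (1.56, 1.07 to 2.07), of which 93 and 40 lay in cluster 18. S100g, a calcium-binding protein of absorptive cells, had 473, against 188 (1.53), but 63.8% of the THC UMIs were in 1 barcode, and without the richest barcode of each library the ratio was 0.66. Hsd11b2, which inactivates corticosterone, had 12 UMIs in THC members, against 61 in vehicle members (-2.15, -3.18 to -1.24). Muc2, the main colonic mucin, had 15, against 59 (-1.78), of which 5 and 55 lay in cluster 7. The unnamed gene 2210407C18Rik had 77, against 229 (-1.38, -1.77 to -1.0).

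Within the mitochondrial UMIs, THC and vehicle members differed most in mt-Nd4, 1.82% in THC members against 2.40% in vehicle members (log2 ratio -0.40), and in mt-Atp8, 4.93% against 3.96% (0.32). The other 11 mitochondrial genes lay between -0.11 and 0.06. Ribosomal protein genes had a median of -0.18 over 80 genes, 6 higher and 74 lower, where all genes had -0.06, with 42.4% higher and 57.6% lower. By nuclear share the ribosomal median was -0.09, with 20 higher and 60 lower, and that of all genes 0.04, with 1866 higher and 1540 lower.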

How the data were processed

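The labels assign 1 library to THC and 1 to vehicle. The deposited matrices hold raw UMI counts per gene and barcode, made by the authors with Cell Ranger 3.0.2 per the file headers; bcl2fastq and Seurat appear without versions in the submitters' processing notes. The genome build and annotation were not given in the sources used here. Of 31053 genes, 30934 identifiers matched GENCODE M21, which gave positions and transcript lengths.

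Barcodes needed 1000 UMIs and 200 genes. Counts were scaled to 10000, log-transformed and clustered in scanpy 1.11.5 (2000 variable genes per library without mitochondrial, ribosomal protein, immunoglobulin, T cell receptor, haemoglobin and sex-linked genes, 30 principal components, 15 neighbours, Leiden resolution 1), giving 26 clusters. A cluster was named from at least 3 markers of 20 lists. Scrublet calls (0.8% per 1000 barcodes expected) were not removed. Names are not the authors' annotation, so differences from theirs may come from the rebuilding.

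Summed UMIs of members and of barcodes under 10% were compared per library and class, for genes with at least 50 UMIs that were found in 10% of the barcodes of a group. Shares have exact binomial and ratios exact conditional Poisson 95% intervals (scipy 1.17.1), which leave out variation between barcodes and mice. A group at 0 was set to a floor of 3 UMIs. Named genes are the 13 mitochondrial ones, the 5 highest and 5 lowest by the interval bound nearest 0 (3 and 3 between treatments), and members of lists. The calling step was tested on simulated data. The members and all lists were chosen with earlier results of these data known. Alternatives included TMM scaling (edgeR 4.0.16).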

Additional observations from a re-analysis of the deposited data

Results flagged for a closer look

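THC barcodes of over 100 UMIs but below the UMI minimum also had a high mitochondrial share, above that of free RNA. The classes they come from were not tested. The 118 barcodes over 100 and up to 500 UMIs had 28.0% mitochondrial UMIs in sum, with 74 of them at 15% or more, and the 39 barcodes over 500 and under 1000 UMIs had 44.2%, with 27 at 15% or more. Barcodes of 11 to 100 UMIs had 3.76%. Vehicle barcodes over 500 and under 1000 UMIs, 47 in number, had 26.3%, with 22 at 15% or more. They come from a matrix cut before deposit, unlike the THC ones.

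Another 26 THC barcodes had at least 1000 UMIs but under 200 genes, and all of them were at 15% or more, with a median of 90.3%. The vehicle library had 15 such barcodes, all at 15% or more, with a median of 89.5%. They were left out of the members by the gene minimum, and the class they come from was not tested.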

How the results depend on the processing

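No paired analysis was possible because each treatment has 1 library, and no replicate could be left out. The share of members with a 20% minimum was 26.8% for THC and 17.7% for vehicle, and 19.7% in the vehicle library with 2500 UMIs. By neighbours, 83.3% of THC and 91.3% of vehicle members were epithelial-like. Epithelial-like barcodes under 5% had medians of 4806 nuclear and 56 mitochondrial UMIs in the THC library, and 2215 and 62 in the vehicle library. The epithelial-like count of genes at least 2-fold higher in both libraries was 500 of 5783 tested in the main comparison. It was 309 of 3604 against barcodes under 5% and 188 of 4514 at the same cluster mix. That mix leaves out the 62 THC and 58 vehicle members of clusters 0 and 18. The counts lower were 375, 147 and 57 of the same totals, and 615 of 8616 with 10 UMIs per gene. With TMM the counts were 459 higher and 410 lower of 5783. Between treatments, nuclear shares gave 21 genes higher and 31 lower. At the same cluster mix, 2010109I03Rik (-2.31) and the medians of glycolysis and hypoxia (-0.24), endoplasmic reticulum (0.044), heat shock (0.32), apoptosis (-0.02), AP-1 (0.37) and goblet marker genes (0.47) turned in direction in the THC library. The cause of these differences was not tested. The same cluster mix, the other sets and the subtracted median were chosen after seeing the data. Few and shallow barcodes limit cluster 3, with 4 vehicle members, and the goblet-like class, with 7. They also limit the same cluster mix in the THC library, where cluster 7 had 35 of the 45 members and 8 barcodes under 10%.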
